A study of Gallus gallus with 12 samples.

Results

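The neural crest transcription factors described here are 8 genes, SOX10, SOX9, SNAI2, TFAP2A, TFAP2B, FOXD3, ETS1 and DLX5, taken by gene symbol from the 13009 genes that the probe annotation of the Affymetrix Chicken GeneChip names alone. They are carried by 15 probe sets. The array measured RNA of the chick midbrain (m) and of 5 hindbrain segments, the rhombomeres r1 to r5, in untreated embryos. Each of the 6 regions was represented by 2 arrays, one from each of a pair of tissue pools collected on different occasions (set 1 and set 2), which gives 12 arrays in all. The sample labels give the stage as HH10, whereas the paper gives HH11. The labels also give 15 min of Dispase. The time in the published methods is shorter. The tissue was cut from neural tubes that Dispase, a protease, had freed of the ectoderm and mesoderm around them, so a region holds its neural epithelium together with whatever crest cells were still in it or attached to it. In pools of this kind fewer crest cells and less RNA per crest cell cannot be told apart.

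Neural crest cells arise at the border between neural plate and ectoderm, gather in the dorsal neural tube, lose their epithelial contacts and migrate away to form peripheral neurons, glia, pigment cells and the skeleton of the face. TFAP2A, TFAP2B and DLX5 act from the border stage onwards, FOXD3, SNAI2, SOX9 and ETS1 specify crest cells and prepare their departure, and SOX10 marks cells that leave and later the glial and pigment lineages. In the hindbrain the crest leaves in streams that lie beside the even segments r2 and r4, while the odd segments r3 and r5 give rise to few migrating cells.

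The regional labels were checked with genes of known position. OTX2, a forebrain and midbrain factor, had a scaled signal of 899 and 800.0 in the midbrain, 138 and 145 in r1, and 1.65 to 18.9 in r2 to r5. Both r1 arrays thus lay well above both r2 arrays. For r1 against the midbrain the log2 fold change was −2.58 (adjusted p = 0.0834), and whether the r1 pools held midbrain tissue was not tested. HOXB1, the Hox gene of r4, was measured at 225 and 367 in r4. Its signal was 57.6 and 101 in r5 and between 0.401 and 15.1 elsewhere. For r2 against r5 the log2 fold change of HOXB1 was −4.76 (adjusted p = 0.00717). HOXA3 was at 512 and 503 in r5, 22.0 and 56.1 in r4, and between 0.551 and 5.61 elsewhere. Whether the r4 and r5 pools held tissue of each other was not tested. The scaled signal is the deposited MAS5 intensity divided by the median of its array and multiplied by one constant, so it has no unit and compares regions within a probe set, not one probe set with another. The r3 arrays stood apart from the rest. Their mean log2 ratio of 3′ to 5′ signal of the control transcripts, a sign of how complete the amplified cDNA was, was 7.12 and 6.12, against 4.05 and 3.56 in r4, 3.36 and 2.08 in r5, and 1.28 to 2.07 in the other regions. Array medians before scaling ran from 2.27 in r3 set 1 to 9.67. Of the probe sets that passed the filter on low signals, 8.42% and 5.29% lay at the floor in r3, against 1.88% to 3.81% elsewhere. Region r3 and so high a ratio cannot be told apart in this design. Over all probe sets tested the median log2 fold change was 0.65 for r2 against r3 and 0.56 for r4 against r3, so the typical probe set was lower in r3 even after scaling. Comparisons with r3 are therefore read against those medians.

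All 8 members had at least 1 probe set above the filter on low signals, and 12 of the 15 probe sets passed it. Each gene is given by its brightest probe set unless another is named. A moderated F test in limma over the 6 regions, adjusted over 21731 probe sets, called 6 of the 8 members at 0.05, where it called 34.9% of all probe sets tested. The ratio of the highest to the lowest region mean was 18.1 for SOX10, 13.6 for SNAI2, 10.6 for FOXD3, 8.67 for TFAP2A, 8.37 for TFAP2B and 5.44 for DLX5. It was 1.86 for SOX9 and 1.24 for ETS1, the pair that was not called.

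SOX10, the SoxE factor of migrating crest, had scaled signals in sets 1 and 2 of 65.7 and 79.7 in the midbrain, 109 and 131 in r1, 233 and 273 in r2, 37.4 and 46.5 in r3, 664 and 856 in r4, and 259 and 198 in r5. Both r4 arrays lay above every other array and both r3 arrays below every other, while r2 and r5 overlapped (F test, adjusted p = 9.64e-06). In the order r3, m, r1, r5, r2, r4, the step from r3 to the midbrain (adjusted p = 0.0178) and the step from r2 to r4 (adjusted p = 0.0129) passed the test, and the 3 steps between them did not (adjusted p = 0.0769 to 0.868). A second SOX10 probe set was dim, at 0.456 to 16.4, and did not separate the regions (adjusted p = 0.385).

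SNAI2 encodes Slug, a zinc finger repressor of cell adhesion genes at the time crest cells detach. Its signals were 29.5 and 31.9 in the midbrain, 46.0 and 78.9 in r1, 205 and 223 in r2, 55.5 and 56.4 in r3, 392 and 445 in r4, and 252 and 225 in r5. The r4 arrays were again the highest, but here the midbrain rather than r3 was the lowest, and r3 lay inside the range of r1 (F test, adjusted p = 1.40e-05). The steps from the midbrain to r3 (adjusted p = 0.0167) and from r1 to r2 (adjusted p = 0.0103) passed, whereas r3 and r1, r2 and r5, and r5 and r4 did not differ beyond their spread (adjusted p = 0.764, 0.882 and 0.275).

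TFAP2A and TFAP2B are paralogous AP-2 factors of the neural plate border, the early crest and the surface ectoderm. TFAP2A was measured at 46.1 and 50.6 in the midbrain, 76.3 and 75.5 in r1, 97.4 and 95.9 in r2, 20.4 and 23.1 in r3, 161 and 216 in r4, and 113 and 68.0 in r5. TFAP2B was measured at 85.2 and 105 in the midbrain, 103 and 88.7 in r1, 192 and 177 in r2, 34.4 and 23.7 in r3, 217 and 269 in r4, and 90.3 and 89.0 in r5. Both had their highest arrays in r4 and their lowest in r3 (F test, adjusted p = 1.62e-04 and 6.68e-05). The r5 arrays of TFAP2A spread across those of r1 and r2, while the r5 arrays of TFAP2B lay at the level of the midbrain and r1. Of neighbouring steps, r3 to m (TFAP2A, adjusted p = 0.00587) and r3 to r5 (TFAP2B, adjusted p = 7.08e-04) passed and the others did not.

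FOXD3, a winged helix factor of premigratory crest, had signals of 28.0 and 24.5 in the midbrain, 93.8 and 35.5 in r1, 70.1 and 38.5 in r2, 4.05 and 11.1 in r3, 89.4 and 70.1 in r4, and 32.2 and 75.2 in r5. Its pairs of arrays differed more than those of any other member in r1, r2 and r5, where they overlapped each other, and r3 was below all other regions (F test, adjusted p = 0.00463). SOX9, a SoxE factor of premigratory crest and later of cartilage, was measured at 27.4 and 25.4 in the midbrain, 28.1 and 29.0 in r1, 35.7 and 30.2 in r2, 22.5 and 14.2 in r3, 31.2 and 37.2 in r4, and 29.9 and 32.8 in r5. The r3 arrays of SOX9 were also the lowest and r2, r4 and r5 overlapped, but the F test was not passed (adjusted p = 0.21).

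ETS1 works in the departure of cranial crest and is also a factor of endothelium. Its brightest probe set gave 104 and 111 in the midbrain, 112 and 123 in r1, 116 and 119 in r2, 134 and 94.8 in r3, 129.6 and 122 in r4, and 107 and 95.4 in r5, with no separation of regions (F test, adjusted p = 0.813). ETS1 had 5 more probe sets, of which 2 passed the filter and both were dim. One of these ran from 0.895 to 14.4 and was lower in r3, at 0.895 and 5.40, than in any other region, with a log2 fold change of 2.43 for r4 against r3 (adjusted p = 0.0217) and of 2.45 for r2 against r3 (adjusted p = 0.0153). The other fell by 2.67 on the log2 scale in r3 against the midbrain (adjusted p = 0.0284). Its mean was 7.13 in the midbrain and lay near the floor in r3, r4 and r5 alike, at 0.798, 1.18 and 1.29. That fall was therefore not particular to r3. Neither dim probe set was called by the F test (adjusted p = 0.0700 and 0.0593), so the ETS1 probe sets disagree on r3 and the sequence each of them reads was not examined here.

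DLX5 is a distal-less homeobox factor of the neural plate border, the placodes and the mesenchyme of the branchial arches. It was measured at 128 and 94.1 in the midbrain, 151 and 132 in r1, 234 and 246 in r2, 561 and 441 in r3, 666 and 539 in r4, and 273 and 285 in r5. The r3 arrays overlapped those of r4 and lay above all arrays of r2 and r5 (F test, adjusted p = 5.45e-05), the opposite of the place r3 held for SOX10, TFAP2A, TFAP2B and FOXD3. The step from r5 to r3 passed (adjusted p = 0.0128) and that from r3 to r4 did not (adjusted p = 0.374). A second DLX5 probe set, at 4.09 to 16.5, did not separate the regions (adjusted p = 0.382).

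**Figure D1:**
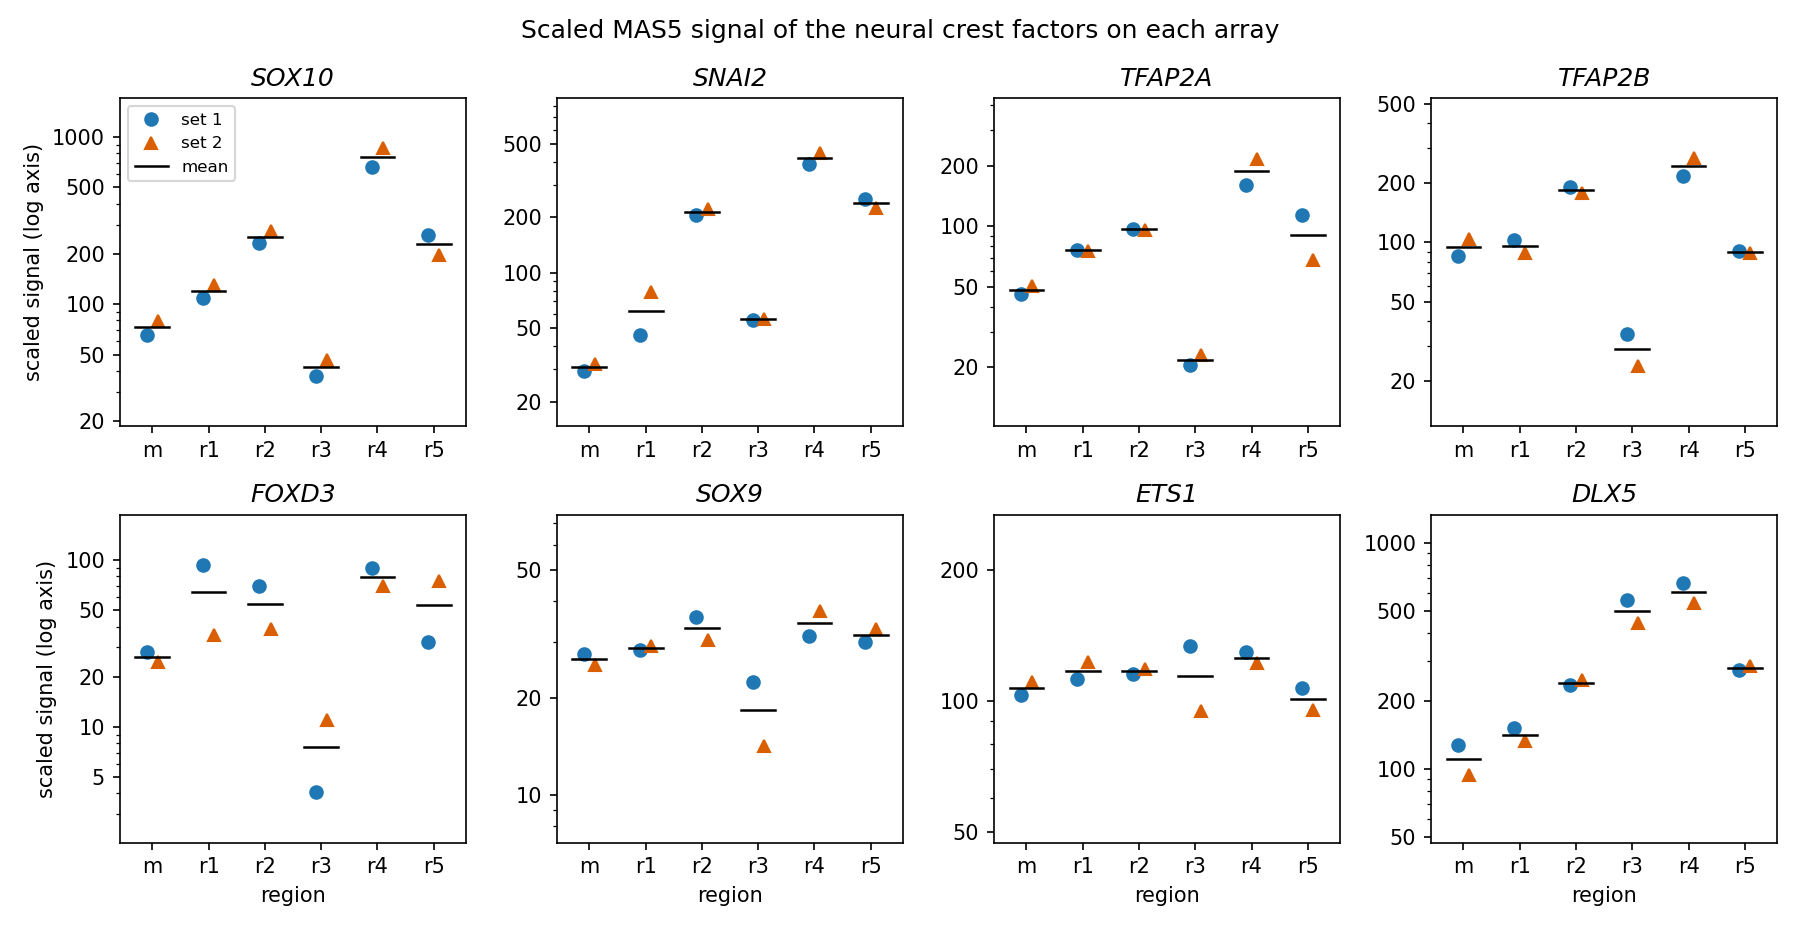
Scaled MAS5 signal (log axis, no unit) of the 8 members in the midbrain (m) and r1 to r5, with set 1 as circles, set 2 as triangles and the mean of the pair as a line. SOX10 and SNAI2 peak in r4, at 664 and 856 and at 392 and 445, ETS1 spans only 94.8 to 134, and the r3 and r4 arrays of DLX5 overlap.

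Even segments were set against odd segments one pair at a time, which asks whether the crest programme follows the alternation of crest streams. Against r3, r2 was higher for 5 members (SOX10, SNAI2, TFAP2A, TFAP2B and FOXD3) and lower for DLX5, and r4 was higher for the same 5. Against r5, r4 was higher for SOX10 and TFAP2B, and r2 for none. SOX10 carried the largest r4 values, 18.1-fold over r3 and 3.33-fold over r5.

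For r2 against r3 the log2 fold change was 2.60 ± 0.24 (SE, n = 2 arrays a region) for SOX10 (adjusted p = 3.36e-05), 2.69 ± 0.25 for TFAP2B (adjusted p = 3.36e-05), 1.94 ± 0.26 for SNAI2 (adjusted p = 2.21e-04), 2.15 ± 0.28 for TFAP2A (adjusted p = 2.01e-04) and 2.96 ± 0.58 for FOXD3 (adjusted p = 0.00225). DLX5 fell by 1.05 (95% interval −1.52 to −0.58, adjusted p = 0.00282), a direction that turned to 0.41 without scaling of the arrays. SOX9 had 0.88 (adjusted p = 0.0524), on the edge of the threshold. limma called 6 of 8 members in this pair, where it called 37.1% of all probe sets, 31.6% higher and 5.5% lower, and the median over the members was 2.05 against 0.65 over all probe sets.

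For r4 against r3 limma called 5 of 8 members, all higher, where 28% of all probe sets were called and 25.2% were higher. The values were 4.18 for SOX10 (95% interval 3.66 to 4.69, adjusted p = 1.34e-05), 2.90 for SNAI2 (adjusted p = 1.24e-04), 3.10 for TFAP2A (adjusted p = 1.24e-04), 3.08 for TFAP2B (adjusted p = 7.15e-05) and 3.56 for FOXD3 (95% interval 2.30 to 4.83, adjusted p = 0.00184). DLX5 had 0.27 (95% interval −0.20 to 0.74, adjusted p = 0.374) and SOX9 0.93. The median was 2.99 over the members and 0.56 over all probe sets. SOX9 was called in both pairs when r3 set 1 was left out, at 1.21 for r2 (adjusted p = 0.0134) and 1.26 for r4 (adjusted p = 0.0161), and likewise at 1.14 for r5 against r3 (adjusted p = 0.0224). At the values given it was also called in both pairs under a filter at 2 times the median (adjusted p = 0.033 for r2 and 0.0329 for r4), a constant prior (0.0414 and 0.0485) and a plain analysis of variance (0.0335 and 0.0413). Without scaling it was called for r2 against r3 at 2.33 (adjusted p = 0.00183). SOX9 was called in neither pair under quantile normalisation, array weights, centring on the probe sets tested or the 3′ to 5′ ratio as a covariate. Its 0.88 for r2 and 0.93 for r4 stand beside medians of 0.65 and 0.56 over all probe sets, the general shift of r3.

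The odd segments differed from each other as well. For r5 against r3, limma called SOX10 (2.44, adjusted p = 7.22e-05), SNAI2 (2.09, adjusted p = 2.45e-04), TFAP2A (2.02, adjusted p = 4.85e-04), TFAP2B (1.65, adjusted p = 7.08e-04) and FOXD3 (2.88, adjusted p = 0.00377) higher in r5, and DLX5 lower (−0.83, adjusted p = 0.0128). These were 6 of 8 members against 31% of all probe sets, with 26.8% higher and 4.18% lower. The median was 1.83 over the members and 0.57 over all probe sets. The DLX5 call was lost without either r5 array, at −0.80 without set 1 and −0.87 without set 2. It was also lost without scaling (−0.31, adjusted p = 0.679), with array weights (adjusted p = 0.104) and with a constant prior (adjusted p = 0.0503).

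In the comparisons with r5, which leave r3 aside, few probe sets differed. For r4 against r5 limma called 2 of 8 members, where it called 0.465% of all probe sets, and 0.189% higher. SOX10 was higher in r4 by 1.74 (95% interval 1.22 to 2.25, adjusted p = 0.00631) and TFAP2B by 1.43 (95% interval 0.89 to 1.97, adjusted p = 0.025). DLX5 had 1.10 (adjusted p = 0.0505), TFAP2A 1.09 (adjusted p = 0.159) and SNAI2 0.81 (adjusted p = 0.275). All 8 members had a positive value, with a median of 0.95 against 0.01 over all probe sets, and 5 had an unadjusted p below 0.05. The share of all probe sets below that unadjusted level was not taken, here or further on. Such counts are therefore no result about the members or the lists. The SOX10 call was lost without r4 set 1 (adjusted p = 0.0504), r4 set 2 (adjusted p = 0.0574) or r5 set 2 (adjusted p = 0.127). The TFAP2B call was lost without any 1 of the 10 arrays that are not r3 (adjusted p = 0.0605 to 0.22). Without both r3 arrays limma called 4 members, adding TFAP2A (adjusted p = 0.0284) and DLX5 (adjusted p = 0.00453). Leaving out r3 arrays changes the spread used for every probe set. The share of all probe sets then called is not given, here or in the other pairs. DLX5 was also added without r3 set 1 (adjusted p = 0.00727) or r3 set 2 (adjusted p = 0.0124), and TFAP2A without r3 set 1 (adjusted p = 0.0427).

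For r2 against r5 limma called 0 of 8 members, where it called 1.09% of all probe sets. A plain analysis of variance also called 0, and 1 member, TFAP2B, had an unadjusted p below 0.05. TFAP2B had 1.04 (95% interval 0.50 to 1.58, adjusted p = 0.0769), and without r3 set 1 it was called at the same value (adjusted p = 0.00726), as it was without r3 set 2 (adjusted p = 0.00954). For SOX10 the difference was 0.16 (95% interval −0.36 to 0.67) and for SNAI2 −0.15 (95% interval −0.71 to 0.40). The 2 even segments were set against each other too. SOX10 was higher in r4 than in r2 by 1.58 (adjusted p = 0.0129) and DLX5 by 1.32 (adjusted p = 0.0207), 2 of 8 members against 0.456% of all probe sets, with 0.239% higher. The SOX10 call was lost without either r2 or either r4 array (adjusted p = 0.055 to 0.273), and the DLX5 call without either r1 array, either r2 array, r4 set 1 or r5 set 2 (adjusted p = 0.0505 to 0.322). Without both r3 arrays limma called 4 members in that pair, adding SNAI2 (0.96, adjusted p = 0.0189) and TFAP2A (0.95, adjusted p = 0.0271), and leaving out 1 r3 array added the same 2.

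**Figure D2:**
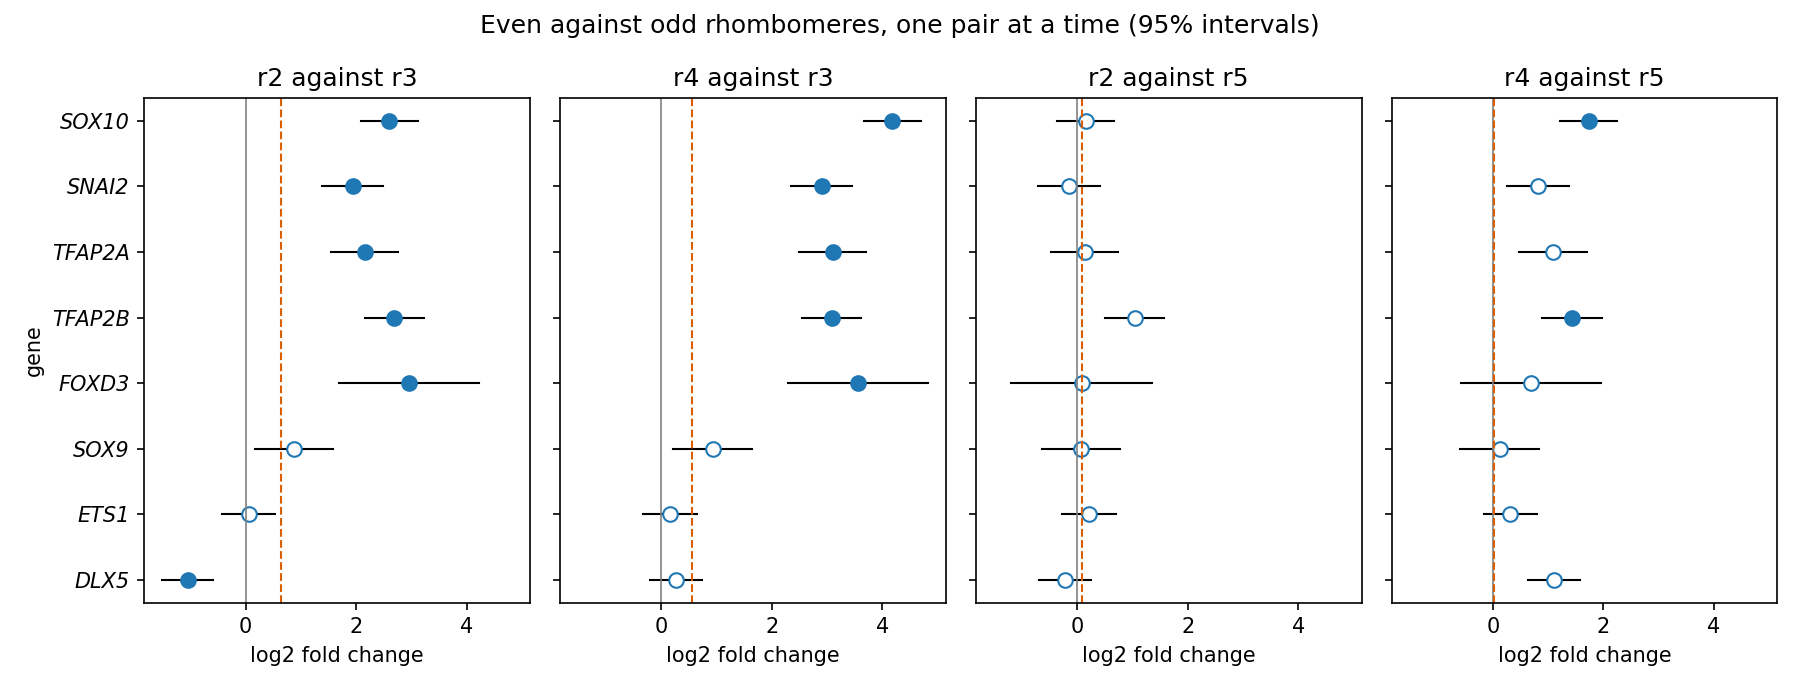
Log2 fold change (x axis) of each member with its 95% interval for r2 and r4 against r3 and against r5, filled where the adjusted p was below 0.05, with the median of all probe sets tested as a dashed line. SOX10 stands at 4.18 for r4 against r3 and at 1.74 for r4 against r5, and DLX5 at −1.05 for r2 against r3.

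The midbrain, which gives rise to crest along its whole length, served as the other reference. Relative to it, SOX10, SNAI2 and DLX5 rose in r2, r4 and r5, and TFAP2A and TFAP2B rose in r4 and did not pass the test in r1, r2 or r5. SNAI2 gained the most, 13.6-fold in r4, followed by SOX10 at 10.4-fold and DLX5 at 5.47-fold. The 5 comparisons with the midbrain share its pair of arrays.

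In r1 limma called 0 of 8 members against the midbrain, where it called 0.101% of all probe sets. A plain analysis of variance called 0 as well. At an unadjusted p below 0.05 there were 3 members, a count with no share over all probe sets beside it. SNAI2 had 0.97 (adjusted p = 0.488) and SOX10 0.72 (adjusted p = 0.845). These are the pools in which OTX2 was at 138 and 145. In r2 SNAI2 was higher by 2.80 (adjusted p = 1.65e-04), SOX10 by 1.80 (adjusted p = 0.00259) and DLX5 by 1.13 (adjusted p = 0.0265), 3 of 8 members against 1.02% of all probe sets, with 0.663% higher. SOX10 was no longer called in r2 without m set 1 (adjusted p = 0.0665) or r2 set 2 (adjusted p = 0.076), and DLX5 without any 1 of the m, r1, r2 and r5 arrays (adjusted p = 0.0588 to 0.4). TFAP2B, at 0.97 (adjusted p = 0.124), was called without r3 set 1 (adjusted p = 0.0126) or r3 set 2 (adjusted p = 0.0156).

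In r4 limma called 5 of 8 members, all higher, against 6.96% of all probe sets and 2.47% higher. SNAI2 rose by 3.77 (adjusted p = 6.77e-06), SOX10 by 3.38 (adjusted p = 7.21e-06), DLX5 by 2.45 (adjusted p = 4.98e-05), TFAP2A by 1.95 (adjusted p = 0.00195) and TFAP2B by 1.36 (adjusted p = 0.00823). FOXD3 had 1.60 (adjusted p = 0.119) and passed without r3 set 1 (adjusted p = 0.0352). TFAP2B was not called without m set 1 (1.21, adjusted p = 0.121) or m set 2 (adjusted p = 0.0548). In r5 the calls were SNAI2 (2.95, adjusted p = 4.9e-05), SOX10 (1.65, adjusted p = 0.00234) and DLX5 (1.35, adjusted p = 0.00426), 3 of 8 against 3.44% of all probe sets, with 1.62% higher. TFAP2B had −0.07 in r5 (adjusted p = 0.916) and TFAP2A 0.86 (adjusted p = 0.124). Without r3 set 1 or set 2, TFAP2A was called in r5 (adjusted p = 0.039 and 0.0478). In r5 SOX10 was lost without m set 1 (adjusted p = 0.0526), and DLX5 without m set 2 (adjusted p = 0.091) or r5 set 2 (adjusted p = 0.0528).

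In r3 limma called 6 of 8 members against the midbrain, where it called 42.7% of all probe sets, 7.3% higher and 35.4% lower. DLX5 rose by 2.18 (adjusted p = 2.23e-05) and SNAI2 by 0.87 (adjusted p = 0.0167), the latter turning to −0.28 without scaling. TFAP2B fell by 1.73 (adjusted p = 2.18e-04), TFAP2A by 1.15 (adjusted p = 0.00587) and FOXD3 by 1.97 (adjusted p = 0.0171). After quantile normalisation TFAP2B had −0.70 (adjusted p = 0.0655), TFAP2A −0.16 (adjusted p = 0.606) and FOXD3 −1.61 (adjusted p = 0.0711), and none of these was called. With arrays centred on the probe sets tested, TFAP2A (−0.32, adjusted p = 0.332) and FOXD3 (−1.13, adjusted p = 0.13) were not called either. SOX10 fell by 0.80 (adjusted p = 0.0178), but had 0.26 after quantile normalisation and 0.041 with arrays centred on the probe sets tested. The median over all probe sets in this comparison was −0.70, which is close to the SOX10 value, and that over the members was −0.68. SNAI2 was not called without m set 1 (adjusted p = 0.0933) or m set 2 (adjusted p = 0.0635), FOXD3 without m set 1, m set 2 or r3 set 1 (adjusted p = 0.0895, 0.0657 and 0.114), SOX10 without m set 2 or r3 set 1 (adjusted p = 0.136 and 0.0559), and TFAP2A without m set 2 (adjusted p = 0.0501). SOX9, at −0.56 (adjusted p = 0.188), was called without r3 set 1 (−0.89, adjusted p = 0.0471) and without scaling (−1.71, adjusted p = 0.0204).

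**Figure D3:**
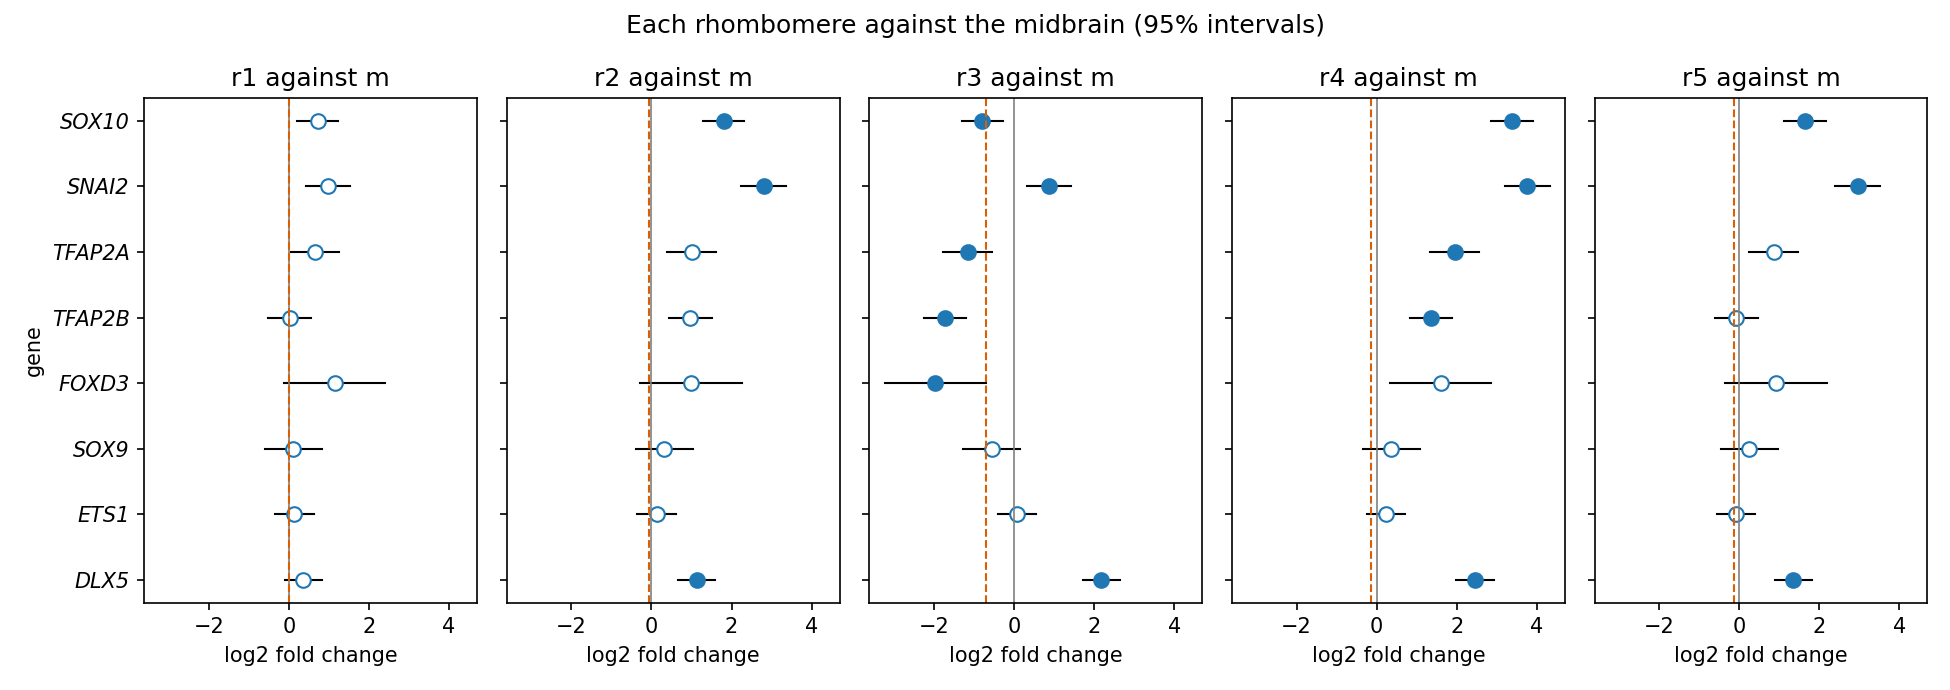
Log2 fold change (x axis) of each member with its 95% interval for r1 to r5 against the midbrain, filled where the adjusted p was below 0.05, with the median of all probe sets tested as a dashed line. SNAI2 and SOX10 reach 3.77 and 3.38 in r4, and in r3 the dashed line lies at −0.70, beside SOX10.

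The control ratio moved with several of these results. Over the 10 arrays without r3, Pearson's r between the log2 signal and the mean log2 ratio of 3′ to 5′ signal was 0.86 for SOX10, 0.86 for DLX5, 0.85 for TFAP2A and 0.78 for SNAI2. The r4 arrays hold both the highest ratio among those 10 and the highest signals. Over all 12 arrays it was −0.24, 0.78, −0.44 and 0.05 for the same genes, and −0.68 for FOXD3. With the ratio as a covariate, limma called 0 of 8 members in each comparison with r3, although in r2 and r4 4 of the 5 members that were higher than in r3 without it kept differences at least as large. For r4 against r3 these were 4.41 for SOX10 (adjusted p = 0.154), and 3.43 for SNAI2, 3.55 for TFAP2A and 3.29 for TFAP2B (adjusted p = 0.308 each). For r2 against r3 they were 3.00 for SOX10, 2.87 for SNAI2, 2.94 for TFAP2A and 3.06 for TFAP2B (adjusted p = 0.693 each). FOXD3 did not keep its values, with −2.91 for r2 against r3 (adjusted p = 0.76) and 0.21 for r4 against r3 (adjusted p = 0.965). The calls of TWIST1, EDNRB, ZIC1 and FABP7 given further on were lost with the covariate as well, and so was that of SOX8 for r5 against r3. So were those of EGFL7, ITGA4 and MSX2 for r4 against the midbrain and of CDH11 for r4 against r3. The same held for SNAI1, DACT2 and OLFM1 for r4 against r5 and for BMP5 and WNT3A for r2 against r5. The slope in that fit rests only on the gap between the 2 arrays of a region, so its estimates do not show whether a difference held. The part of the ratio in these results was not otherwise tested.

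**Figure D4:**
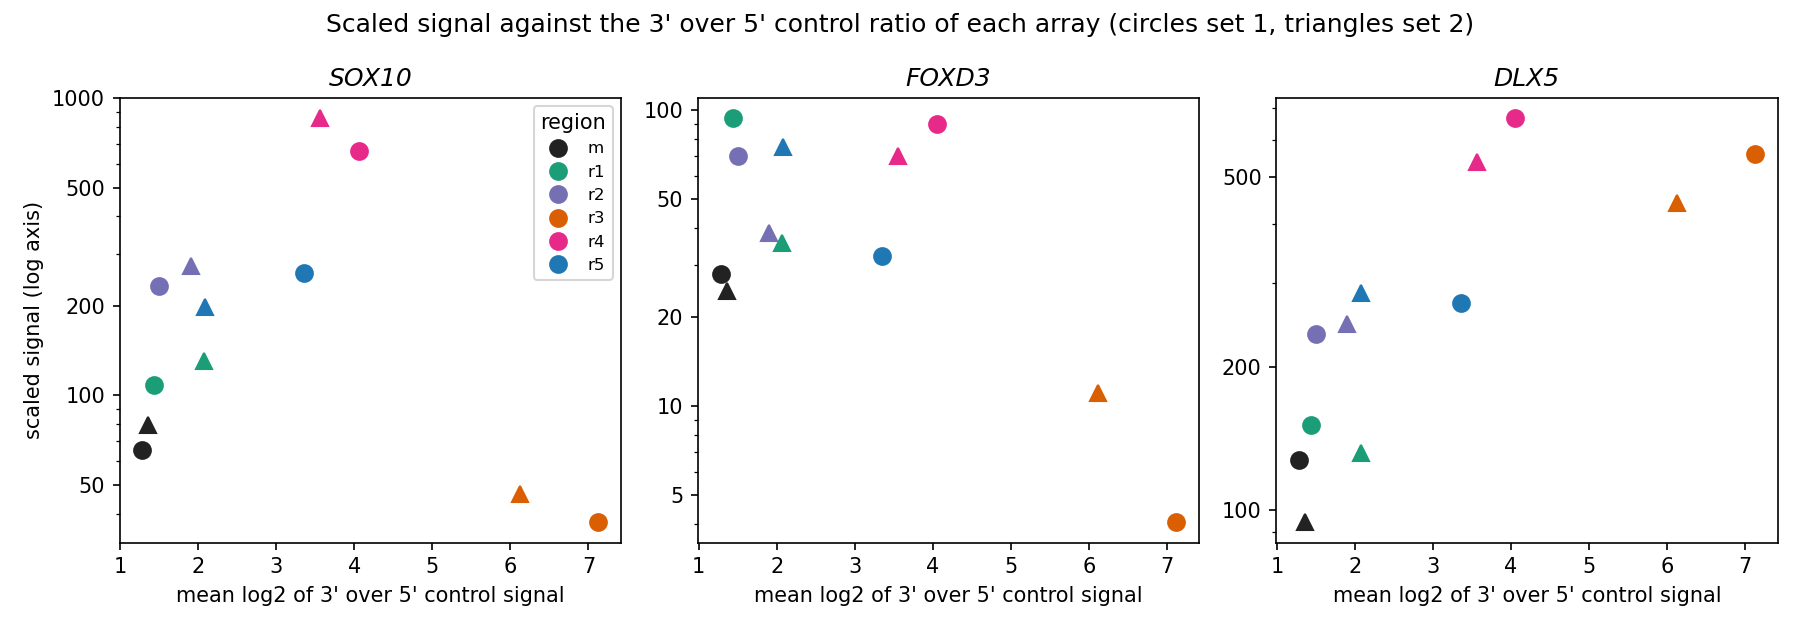
Scaled signal (log axis) of SOX10, FOXD3 and DLX5 against the mean log2 ratio of 3′ to 5′ control signal of each array, coloured by region. The r3 arrays, at 7.12 and 6.12, hold the lowest SOX10 and FOXD3 signals and high DLX5 signals, and among the other 10 arrays both r4 arrays have the highest ratios, at 4.05 and 3.56, and the highest SOX10 signals.

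Markers of other tissues that may adhere to the neural tube were summed over each array. A sum adds the levels of different probe sets and is carried by the brightest of them. For blood and endothelium, 17 of 24 listed genes were named and 14 passed the filter, and the sum was 199 to 234 in the midbrain, 313 to 325 in r1, 681 to 738 in r2, 458 to 661 in r3, 849 to 936 in r4 and 494 to 680 in r5. Most of it was 1 gene, EGFL7, a gene of endothelium, at 700.0 and 733 in r4 and 106 and 129 in the midbrain (log2 fold change 2.61, adjusted p = 1.23e-04). The other 16 genes summed to 92.9 to 104 in the midbrain, 72.0 to 92.1 in r1, 254 to 265 in r2, 189 to 212 in r3, 149 to 203 in r4 and 117 in both r5 arrays, so that without EGFL7 the sum was highest in r2 and lowest in r1.

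Single genes of that list were also higher in the segments than in the midbrain. Against the midbrain 2 of the 14 rose in r4, EGFL7 and LMO2, while 4 rose in r3, 2 in r2 and 1 in r5. Of all probe sets 2.47% rose in r4, 7.3% in r3, 0.663% in r2 and 1.62% in r5. LMO2, a factor of blood and endothelial precursors, was at 6.08 and 2.75 in the midbrain and 12.4 and 19.5 in r4 (1.93, adjusted p = 0.048), and at 25.3 and 20.7 in r2. HBE, an embryonic globin of red cells, was at 13.3 and 12.8 in the midbrain, 47.2 and 55.7 in r2 and 45.8 and 67.9 in r4 (2.10, adjusted p = 0.069 for r4). ERG, a factor of endothelium, was at 2.61 and 2.55 in the midbrain and 8.34 and 13.1 in r4 (2.02, adjusted p = 0.11), and KDR, a receptor of endothelial precursors, at 2.86 and 0.657 and at 6.64 and 8.79 (2.16, adjusted p = 0.16). The r4 arrays of all 4 genes lay above those of the midbrain, as did those of SOX10, SNAI2 and DLX5. Other genes of the list did not rise in r4. HBZ was at 10.1 and 12.6 in the midbrain and 6.24 and 7.70 in r4. TIE1 was at 4.21 and 6.24 in the midbrain and 2.75 and 1.13 in r4, and the r4 arrays of HBAD and SOX18 overlapped those of the midbrain. CDH5, the cadherin of endothelium, was 10.5 and 11.4 in r4 and 39.0 in set 1 of r2, and TAL1, a factor of blood precursors, did not pass the filter. The part of blood and endothelium in the r2, r4 and r5 values of the members was not tested.

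The mesoderm sum (12 of 17 genes named, 5 above the filter) was 84.6 to 198, with TBX1 and MEOX1 under the filter and TCF15 at 11.3 to 26.8. This sum was 158 to 198 in the midbrain and 94.2 to 102 in r3. FOXC2, a forkhead factor of head and paraxial mesoderm, was highest in r3, at 48.9 and 26.9 against 2.05 and 7.10 in the midbrain (3.25, adjusted p = 0.00505), and was at 15.0 and 24.4 in r4. MEOX2, a homeobox factor of somites, was highest in r5, at 34.7 and 40.9 against at most 15.8 elsewhere (r5 against the midbrain 4.61, adjusted p = 0.0383). Of 13 endoderm and heart genes 11 were named and 6 passed the filter, with sums of 76.4 to 149.6. This sum was 126 to 149.6 in r2 and 122 to 125 in r3. GATA5, a zinc finger factor of endoderm and heart mesoderm, was at 58.5 and 61.8 in r3, 21.0 and 18.6 in r4 and 14.5 and 17.5 in r5, and between 1.71 and 5.80 in the midbrain, r1 and r2. It rose against the midbrain by 4.57 in r3 (adjusted p = 5.85e-05), 2.96 in r4 (adjusted p = 0.00756) and 2.65 in r5 (adjusted p = 0.0171). FOXC2 and GATA5 thus moved with the high r3 values of DLX5, but other genes of their lists did not. TBXT was at 0.742 and 11.9 in r3 against 56.4 and 75.0 in the midbrain, and APOA1 at 0.264 and 6.09 against 41.4 and 49.9. Against the midbrain, limma called 1 of the 5 mesoderm genes higher and 2 lower in r3. Of the 6 endoderm and heart genes, 1 was higher and 1 lower. Over all probe sets 7.3% were higher and 35.4% lower. The part of mesoderm and endoderm in the r3 values of DLX5 was not tested.

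The sum for surface ectoderm and otic placode (15 of 24 named, 11 above the filter) was highest in the midbrain and r1, at 1728 to 1967, and was 387 to 494 in r3 and 591 to 635 in r4. It was carried by EPCAM (652 to 679 in the midbrain and r1), CLDN1 (527 to 664) and PAX2 (363 to 470.1), and PAX2 is also a gene of the neural tube at the midbrain and its boundary with the hindbrain, so the sum does not read ectoderm alone. Of its defining markers, TP63 ran from 5.00 to 11.6 and CDH1 from 25.5 to 101, and KRT19 was not analysed here. The 9 neural tube genes summed to 2452 to 3494.

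How far the rest of the crest network moved was read from 5 lists. Their counts stand beside those over all probe sets, of which 31.6% were higher and 5.5% lower in r2 than in r3, 25.2% were higher in r4 than in r3, and 1.09% differed between r2 and r5 and 0.465% between r4 and r5. Of 19 genes of delamination and migration above the filter, 10 were higher and 1 lower in r2 than in r3, and 7 higher and 1 lower in r4 than in r3. For r2 against r5 the count was 1 higher, and for r4 against r5 it was 0. In the latter pair 8 had an unadjusted p below 0.05, again without a share over all probe sets. The list's median was 0.89 for r2 against r3 and 0.52 for r4 against r3, beside 0.65 and 0.56 over all probe sets, so that for r4 the list lay slightly below the typical probe set. Against the midbrain, 2 rose in r2, where 0.663% of all probe sets rose, and 4 rose and 2 fell in r4, where 2.47% rose. CDH11, a cadherin of mesenchymal cells, had 5.17 and 6.39 in the midbrain, 7.66 and 6.61 in r1, 43.9 and 40.7 in r2, 25.9 and 17.3 in r3, 50.6 and 59.3 in r4, and 25.3 and 22.1 in r5. Its r2 and r4 arrays exceeded all others, by 1.37 for r4 against r3 (adjusted p = 0.0167), while its 1.21 for r4 against r5 did not pass (adjusted p = 0.251). The r3 difference was not called after quantile normalisation (0.63, adjusted p = 0.29), with centring (0.89, adjusted p = 0.11) or without r4 set 2 (adjusted p = 0.107). ITGA4, the alpha-4 integrin of migrating crest, rose by 2.49 in r2 (adjusted p = 0.00518) and 2.42 in r4 (adjusted p = 0.00259) against the midbrain, the first not called without m set 2, r2 set 1 or r2 set 2 (adjusted p = 0.0819 to 0.0946) and the second without m set 2 (adjusted p = 0.05). The signals of ITGA4 were 54.9 and 39.4 in the midbrain, 268 and 254 in r2, 288 and 214 in r3, and 164 and 379 in r4. Its high signal was therefore not particular to r2 and r4, and its r4 arrays lay far apart. NRP2, a semaphorin receptor, was the 1 gene of the list higher in r2 than in r5, at 137 and 154 against 13.5 and 30.5 (2.84, adjusted p = 0.00158). With arrays centred on the probe sets tested, 5 of the list differed between r2 and r3 and 4 between r4 and r3.

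Of 15 other crest specifiers above the filter, 7 were higher and 2 lower in r2 than in r3, 4 higher and 1 lower in r4 than in r3, 0 differed between r2 and r5 (3 at an unadjusted p below 0.05), and 5 rose in r4 against the midbrain, where 2.47% of all probe sets rose. The 4 of 15 for r4 against r3 are close to the 25.2% over all probe sets and are no result about the list. Its median was 1.08 for r2 against r3 and 0.90 for r4 against r3, beside 0.65 and 0.56 over all probe sets. SOX8, the remaining SoxE factor, had the same order of region means as SOX10 apart from the place of r5. It had 14.0 and 10.1 in the midbrain, 15.9 and 19.0 in r1, 22.6 and 26.4 in r2, 10.1 and 13.1 in r3, 29.4 and 31.0 in r4, and 54.1 and 68.2 in r5, so that r5 and not r4 was its highest region. Its value was 1.39 for r4 against r3 (adjusted p = 0.0131) and −1.01 for r4 against r5, which did not pass (adjusted p = 0.354). For r5 against r3 it was 2.40 (adjusted p = 6.41e-04), which with the 3′ to 5′ ratio as a covariate was 1.70 (adjusted p = 0.757). SNAI1, the paralogue of SNAI2, was at 130.0 and 121 in r5 and at 2.90 and 16.2 in r4, and was the 1 specifier called between r4 and r5 (−4.19, adjusted p = 0.0107), where 0.465% of all probe sets were called, a call lost without r4 set 1 (−2.95, adjusted p = 0.0522), r5 set 1 or r5 set 2 (adjusted p = 0.124 and 0.144). MEOX2 of the mesoderm list was likewise highest in r5, whereas TCF15, FOXC2 and TBXT of that list had their highest means in r2, r3 and the midbrain. Of the 5 mesoderm genes above the filter, limma called 0 between r4 and r5. Against the midbrain, 1 was higher and 1 lower in r5. The part of mesoderm in the SNAI1 value was not tested. TWIST1, a factor of mesenchymal cells, was highest in r3 at 127 and 60.2 and lay between 1.15 and 7.25 in the midbrain and r1. It rose by 5.03 in r3 (adjusted p = 2.21e-04) and by 3.24 in r4 (adjusted p = 0.0209) against the midbrain. The r4 call was lost without m set 2 (2.01, adjusted p = 0.193), r4 set 1 (adjusted p = 0.124) or r4 set 2 (adjusted p = 0.087), and with the 3′ to 5′ ratio as a covariate (3.81, adjusted p = 0.57). FOXC2 and GATA5 were also highest in r3, whereas TBXT and APOA1 of the same lists were lower in r3 than in the midbrain. The part of mesoderm and endoderm in the TWIST1 values was not tested.

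Of 8 further neural plate border genes, 4 were higher and 2 lower in r2 than in r3, 3 higher and 1 lower in r4 than in r3, and 0 differed between r2 or r4 and r5 (2 and 1 at an unadjusted p below 0.05). The list's median was 0.69 for r2 against r3, near the 0.65 over all probe sets, and 1.04 for r4 against r3, beside 0.56. The 4 of 8 and 3 of 8 higher stand beside 31.6% and 25.2% of all probe sets, and with centring 3 differed in each pair. MSX2, a target of BMP signalling at the border, was at 7.63 and 8.53 in the midbrain and from 21.7 to 50.9 in the hindbrain arrays, and rose by 2.58 in r2 (adjusted p = 0.00399) and 2.09 in r4 (adjusted p = 0.00635). These calls were lost without m set 1, r2 set 1 or r2 set 2 for r2 (adjusted p = 0.0601 to 0.0931), and without m set 1, m set 2 or r4 set 1 for r4 (adjusted p = 0.0584 to 0.0789). PAX7, which marks the border and dorsal tube, was at 0.853 and 2.08 in r3 and 14.3 to 34.6 in every other array, with r3 near the floor. ZIC1, a zinc finger factor of the dorsal tube, was lower in r2 than in r3, with −2.49 (adjusted p = 6.12e-05), the same direction as DLX5. Without scaling it had −1.03 and was not called (adjusted p = 0.0568).

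Of 10 genes of crest derivatives above the filter, 4 were higher and 1 lower in r2 than in r3, 5 higher in r4 than in r3, and 0 differed between r2 or r4 and r5 (1 each at an unadjusted p below 0.05). The list's median was 0.31 for r2 against r3, below the 0.65 over all probe sets, and 1.22 for r4 against r3, beside 0.56. The 4 of 10 higher for r2 stand beside 31.6% of all probe sets and the 5 of 10 for r4 beside 25.2%, and after quantile normalisation or centring 1 gene differed between r4 and r3. EDNRB, an endothelin receptor of crest cells, was at 8.54 and 7.11 in the midbrain, 20.1 and 19.9 in r1, 38.3 and 49.0 in r2, 97.5 and 37.8 in r3, 137 and 173 in r4, and 50.3 and 59.0 in r5. The r4 arrays were above all others, as for SOX10, but the r3 arrays spread from below both r2 arrays to above both r5 arrays. EDNRB rose by 4.31 ± 0.40 (SE) in r4 against the midbrain (adjusted p = 7.30e-05), which became 3.56 with the 3′ to 5′ ratio as a covariate (adjusted p = 0.229), and was 1.34 above r3 (adjusted p = 0.0263). The second call was lost after quantile normalisation (0.57, adjusted p = 0.37), with centring (0.86, adjusted p = 0.164), and without r3 set 2 (0.66, adjusted p = 0.0947), r4 set 1 (adjusted p = 0.0578) or r4 set 2 (adjusted p = 0.159). FABP7, a lipid-binding protein of glia and radial glia, was higher in r4 than in r3 by 2.42 (adjusted p = 0.00106), and with the ratio as a covariate had 1.21 (adjusted p = 0.631).

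Of 13 genes of the inducing signals above the filter, 5 were higher and 1 lower in r2 than in r3, 4 higher in r4 than in r3, and 2 higher and 1 lower in each of r2 and r4 against r5. The list's median was 1.30 for r2 against r3 and 0.95 for r4 against r3, beside 0.65 and 0.56 over all probe sets. The 5 of 13 and 4 of 13 higher are near the 31.6% and 25.2% of all probe sets and are no result about the list, and with centring 4 and 3 differed. Against r5, 1.09% of all probe sets were called for r2 and 0.465% for r4. BMP5, a ligand of the BMP family, peaked in r2 at 144 and 171, against 44.3 and 23.7 in r5 (2.28, adjusted p = 0.0158). DACT2, an intracellular modulator of WNT and TGF-beta signalling, was at 1289 and 1396 in r4 and 409 to 691 on the other arrays, and was higher in r4 than in r5 by 1.07 (adjusted p = 0.0237). OLFM1, a secreted glycoprotein that in chick prolongs crest production, was at 413 and 499.5 in r4 and 178 and 112 in r5 (1.69, adjusted p = 0.0157). WNT3A, a dorsal WNT ligand, was lower in r2 than in r5, with −2.13 (adjusted p = 0.00717). All 4 calls were lost without single arrays of the regions compared, BMP5 without r2 set 1, r2 set 2 or r5 set 2 (adjusted p = 0.147 to 0.21), OLFM1 without r4 set 1, r4 set 2 or r5 set 2 (adjusted p = 0.102 to 0.228), WNT3A without any r2 or r5 array (adjusted p = 0.0618 to 0.134), and DACT2 without any m, r2, r4 or r5 array (adjusted p = 0.0676 to 0.216). BMP4, WNT1 and PAX3 did not pass the filter, with signals of at most 9.63, 5.54 and 1.68, so nothing can be said of them from these arrays.

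**Figure D5:**
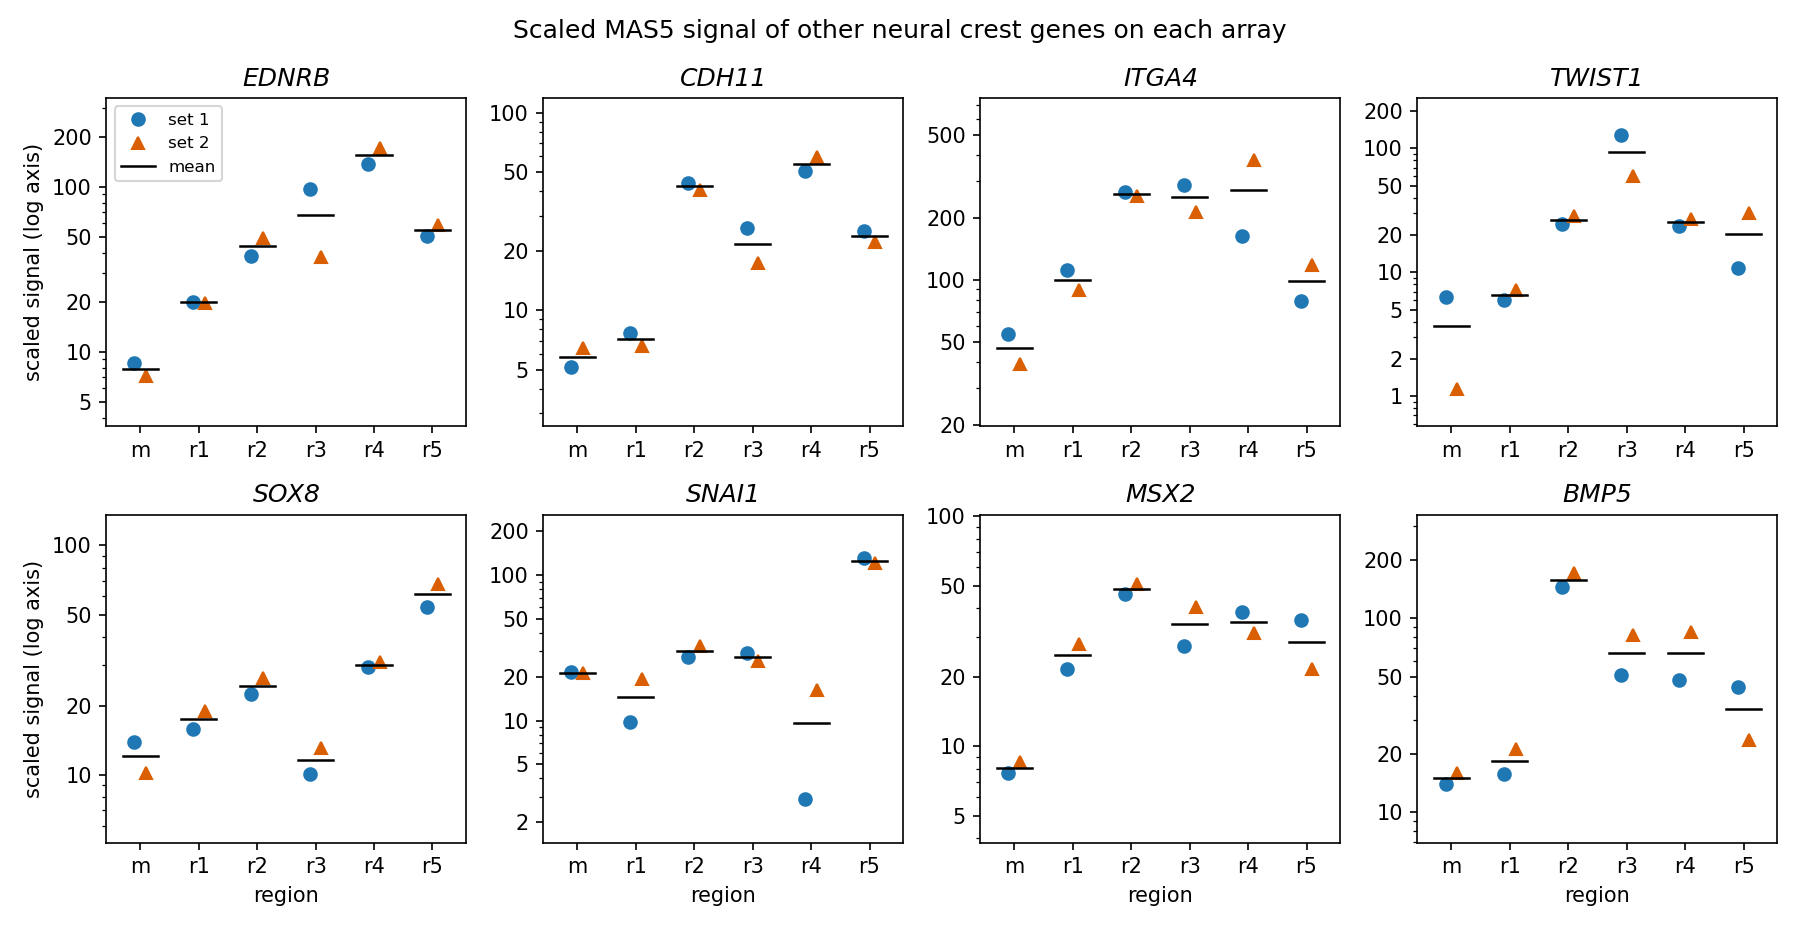
Scaled MAS5 signal (log axis, no unit) of 8 other crest genes in each region, with set 1 as circles, set 2 as triangles and the mean as a line. EDNRB and CDH11 are highest in r4, SOX8 and SNAI1 in r5, TWIST1 in r3, and MSX2 and BMP5 in r2.

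Among the members themselves, the log2 signals of SOX10 and TFAP2A ran most closely together, with Pearson's r of 0.96 over 12 arrays and 0.96 over the 10 without r3. SOX10 and SNAI2 had 0.90 and 0.94. SOX10 and DLX5 had 0.35 over all arrays and 0.96 without r3, and TFAP2A and DLX5 0.11 and 0.89, so that the likeness to DLX5 depended on whether r3 was counted. These values describe 6 regions measured on shared arrays that also share their amplification, and carry no test. In the search over other genes each was taken at its best-correlated probe set, which for EGFL7 and DACT2 was not the brightest. Among 10001 genes, those most like SOX10 were TFAP2A, DERA (r = 0.95) and SAR1B (r = 0.94). Those most like SNAI2 were EGFL7 (r = 0.95), SLC26A8 and FST (both r = 0.94), the first of which is the leading gene of the blood and endothelium list. The genes most like DLX5 were TACC2, COG1 (both r = 0.96) and RASGEF1A (r = 0.95), and those most like TFAP2B were FAM171B, DACT2 and PLA2G12A (r = 0.95 each). For TFAP2A they were CINP and MPHOSPH10 (both r = 0.98) and CTSO (r = 0.96).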

How the data were processed

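The authors hybridised cDNA amplified from 10 ng of total RNA per pool (NuGEN Ovation) and deposited a MAS5 intensity, linear and not scaled between arrays, for each of 38535 probe sets. MAS5 is named in the submitters' processing notes. For scaling, the intensities of an array were divided by the median of its 38439 probe sets other than AFFX controls, and a common factor of 5.90 brought them back to the average level. A floor at the 20th percentile of all values (1.03) was set before log2 was taken, which understates changes of dim genes. A probe set was kept if some region had its 2 arrays over their medians, which held for 21731 (10001 genes). The platform annotation gave the symbols, and 27168 probe sets carry 1 symbol, 177 several and 11094 none.

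The 11 pairs of regions and the F test were computed in limma 3.58.1 (R 4.3.3) with lmFit, contrasts and eBayes, the prior following intensity, on 6 means with 6 residual and 6.00 prior degrees of freedom. Tests were two-sided, with Benjamini-Hochberg adjustment over all probe sets tested in each pair and a threshold of 0.05. A further 4 pairs were added to order the levels. The code was tested on simulated data. Nothing in the labels ties the pools to counted embryos, so p-values set a difference against the spread between 2 pools, pooled over regions, and the number of arrays limits the precision. The genes named are the 8 members, up to 3 called genes for each crest list and pair, of which some are given, the markers used as checks, and the 3 genes most correlated with a member. BMP4, WNT1, PAX3 and the single marker genes given with values were named after their values were seen. The members, lists and pairs were chosen with earlier results of these data known. The alternatives were quantile normalisation, no scaling, no floor or a floor at the 40th percentile, and no filter or one at 2 times the median. Further ones were eBayes with a constant prior, array weights, a plain analysis of variance, the set number as a block and the probe set with the lowest adjusted p. Others were the 3′ to 5′ ratio as a covariate and leaving out both r3 arrays or 1 array. Centring on the probe sets tested was added after the data were seen. The paper names a one-way analysis of variance for which correction is optional. The plain analysis of variance here kept the pairs, F test and adjustment of the main fit, so its calls are not those of the paper's test. Detection flags and promoter and protein sequences were not used here. matplotlib 3.10.9 (Python 3.11.15) drew the figures.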

Additional observations from a re-analysis of the deposited data

How the results depend on the processing

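The F test called 6 members on leaving out any 1 array. Leaving out 1 array gave 0 to 0 calls for r1 against the midbrain, 1 to 4 for r2, 2 to 6 for r3, 4 to 6 for r4 and 2 to 4 for r5, and 6 to 7 for r2 against r3, 5 to 6 for r4 against r3, 5 to 7 for r5 against r3, 0 to 1 for r2 against r5, 0 to 4 for r4 against r5 and 0 to 4 for r4 against r2. With the 3′ to 5′ ratio as a covariate the counts became 0 for r2 against r3, r4 against r3, r5 against r3, r3 against m, r4 against r2 and r4 against r5, 2 for r4 against m and 1 for r5 against m. SOX10, SNAI2, TFAP2A and TFAP2B lost their calls in r2, r4 and r5 against r3, with estimates no smaller than before (SNAI2 3.43 and TFAP2B 3.29 for r4). The slope in that fit rests only on the gap between the 2 arrays of a region, so these estimates do not show that a difference held. FOXD3 then had −2.91 for r2 against r3, −1.77 for r5 against r3 and 4.35 for r3 against m, and SNAI2 −0.13 for r3 against m. Without scaling the counts were 1 for r2 against m, 3 for r4 against m, 1 for r5 against m, and 0 for r4 against r2 and r4 against r5, while DLX5 had 0.41 for r2 against r3 and SNAI2 −0.28 for r3 against m. Array weights gave 2 for r1 against m, 5 for r2 against m, 1 for r2 against r5 and 3 for r3 against m. Quantile normalisation gave 3 for r3 against m and 1 for r4 against r5, with SOX10 at 0.26 for r3 against m and ETS1 at −0.72 for r2 against r3 (adjusted p = 0.0389). Under it the median over all probe sets was 0.13 for r2 against r3 and −0.11 for r3 against m. SOX10, TFAP2A, TFAP2B and FOXD3 were then no longer called lower in r3 than in the midbrain. No filter gave 1 for r4 against r2 and 1 for r4 against r5, a constant prior gave 0 and 1, and a plain analysis of variance 0 and 0. Without both r3 arrays the counts were 5 for r2 against m, 1 for r2 against r5, 4 for r4 against r2 and 4 for r4 against r5. The counts of this section are given without the share of all probe sets called under the same setting. Centring on the probe sets tested, chosen after seeing the data, gave 4 for r4 against r2 and SOX10 at 0.041 for r3 against m. Taking the ETS1 probe set with the lowest adjusted p gave −2.25 for r3 against m and 2.26 for r5 against r3. The cause of these shifts was not tested. Arrays with the same set number did not deviate together (0 of 15 pairs of regions above 0.1, −0.04 to 0.07). With the set number as a replicate block, 87 of 88 member values kept their call and direction, and DLX5 for r4 against r5 gained one (adjusted p = 0.0441). The 5 members higher in r2 and r4 than in r3 kept their calls under quantile normalisation and under centring, with SOX10 at 3.12 and 3.70 for r4 against r3. The low signal of the r3 arrays limits every comparison with r3, and 2 arrays a region limit all.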
